A study of Oryctolagus cuniculus with 12 samples.

Results

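KDR and ESM1 are a pair of endothelial genes, out of 10144 named genes with a probe on a rabbit Agilent expression array and 7306 with a probe bright enough to test. They were read by 12 of its 43623 non-control oligonucleotide probes, 7 for KDR and 5 for ESM1. The probes were taken as every non-control probe that the array's gene names, accessions or descriptions assign to either gene. Both genes were chosen by their day 3 differences from control in earlier results of these same arrays, so their levels and differences are given as a description and without a test. The arrays measured total RNA of basilar artery, the artery on the underside of the brainstem, from rabbits after experimental subarachnoid hemorrhage, which is bleeding into the fluid space around the brain. Groups were arteries taken 3, 5 or 7 days after the hemorrhage and normal control arteries (day 0), with 3 arrays each. The labels give no strain, age, sex or way of inducing the bleeding, and nothing in them says whether each artery came from its own animal; p-values therefore cover the spread among these 12 samples alone, part of which may be technical.

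KDR is vascular endothelial growth factor (VEGF) receptor 2, the receptor tyrosine kinase through which VEGFA drives endothelial growth, migration, permeability and survival. FLT1 and FLT4 are its sister receptors, and the neuropilins are co-receptors. ESM1, or endocan, is a small dermatan sulfate proteoglycan that endothelial cells secrete. It is known from mouse retina and human endothelial cultures as a gene that VEGF signalling through KDR switches on and that sprouting tip cells carry, and it binds the leukocyte integrin made of ITGAL and ITGB2.

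The probe sequences are shown because the 12 probes are not 12 separate readings: they fall on 3 short stretches of transcript. The 5 overlapping upstream KDR probes of 60 bases lie within chr15:93618247-93618319 on the plus strand, in the coordinates that the array design gives; the genome build behind them, and the exon, are not named in the sources used here. The first and the last of them are printed with the 47 bases that all 5 share in capitals:
KDR upstream probe 1: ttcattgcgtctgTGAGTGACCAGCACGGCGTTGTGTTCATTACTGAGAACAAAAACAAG
KDR upstream probe 5: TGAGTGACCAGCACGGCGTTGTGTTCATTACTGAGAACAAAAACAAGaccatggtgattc

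The other two KDR probes lie 24541 bases further along, both at chr15:93642861-93642920, and differ from each other at 2 bases, printed in capitals:
KDR downstream probe 1: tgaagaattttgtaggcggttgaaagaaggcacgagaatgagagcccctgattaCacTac
KDR downstream probe 2: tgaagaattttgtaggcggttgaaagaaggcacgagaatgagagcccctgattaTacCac
Counted from 1 at the 5′ end, the second of these downstream probes differs from the first by C55T and T58C. In the single reading frame of the stretch without a stop codon, which has 19 whole codons, neither difference changes the encoded amino acid.

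The 5 ESM1 probes tile chr11:70962822-70962885 on the minus strand, each shifted by 1 base from its neighbour. The array describes them as an ESM1-like transcript. The outer 2 are printed with the 56 bases common to all 5 in capitals:
ESM1 probe 1: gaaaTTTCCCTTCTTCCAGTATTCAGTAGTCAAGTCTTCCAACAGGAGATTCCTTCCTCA
ESM1 probe 5: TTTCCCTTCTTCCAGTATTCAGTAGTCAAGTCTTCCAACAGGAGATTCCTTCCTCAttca
Probes of 1 stretch read the same piece of transcript, so how closely they match shows the precision of the spots and is not replication of the biology.

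Signals are given as log2 of the processed spot intensity minus log2 of the same array's 75th percentile, so that 0 is the 75th percentile of the array and a difference of 1 is a doubling. ESM1 was bright: all 60 of its spots were well above background, with intensities between 257 and 2150 units and a scanner error of about 10% per spot. KDR was dim: 39 of its 84 spots were well above background, with intensities between 2.52 and 70.9 units and a median error of 24.65%. By group, that was 0 of 21 spots in day 3 arteries, 17 in day 5 arteries, 10 in day 7 arteries and 12 in controls. Control replicate 2 stood apart: 50.1% of its spots passed this detection limit, where the remaining 11 arrays had 58.2% to 64.0%, and its lowest passing signal was 29.9 units, where theirs was 7.76 to 13.8 units. Only 1 of the 7 KDR spots passed on that array. No spot was saturated on any array. Each slide carried 1 array of every group, always at the same position for a given group, so position on the slide and group cannot be told apart.

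ESM1 was higher on day 3, by 3.61- to 3.82-fold across its 5 probes, and was nearer to the controls on days 5 and 7. Probe 3, the brightest on average, read 2.96, 3.49 and 2.95 in day 3 arteries, against 0.97, 1.26 and 1.40 in controls. The lowest day 3 array lay well over the highest control, and the groups did not overlap. The fitted log2 difference was 1.92 (SE 0.23), and on the 3 slides taken singly it was 1.99, 2.23 and 1.55. Over all 5 probes the day 3 spots ran from 2.82 to 3.49, against 0.83 to 1.45 for the control spots. The groups were separate on 5 of 5 probes, beside 13.1% of the 26433 tested probes of the array; since ESM1 was chosen on this contrast, nothing is read from that share. A probe was tested when some group had all 3 of its arrays well above background.

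On day 5, ESM1 probe 3 read 1.75, 2.13 and 1.57, against the same control values of 0.97, 1.26 and 1.40. Every day 5 array was above every control, by a margin smaller than the range within either group. The difference was 0.60 on the log2 scale (SE 0.23), and on slide 3 it was only 0.16. Across the 5 probes the day 5 arteries were 1.46- to 1.63-fold above controls, again without overlap in 5 of 5 probes, where 10.2% of tested probes did so in this direction. The controls also took part in the choice of ESM1, so nothing is read from that share.

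Day 7 values of ESM1 probe 3 were 2.0, 1.28 and 1.62, against 0.97, 1.26 and 1.40 in controls. Replicate 2 lay within the control range, and 0 of 5 probes had separate groups (12.3% of tested probes were separate in this direction). The day 7 difference was 0.42 (SE 0.23). Averaged over its 5 probes, ESM1 stood at 3.06 ± 0.30 on day 3, 1.76 ± 0.29 on day 5, 1.55 ± 0.36 on day 7 and 1.16 ± 0.22 in controls (SD, n = 3 arrays each). In that order of levels, day 3 was clear of day 5, and day 5 and day 7 overlapped, as did day 7 and control. Day 5 arteries were 2.34- to 2.52-fold below day 3 arteries, and day 7 arteries were 2.82- to 2.90-fold below them. Groups were separate for 5 of 5 probes in both comparisons. Among tested probes, 6.34% were separate and lower in day 5 than in day 3, and 10.2% in day 7 than in day 3. ESM1 was chosen for its day 3 values, which enter both comparisons, so nothing is read from those shares.

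**Figure D1:**
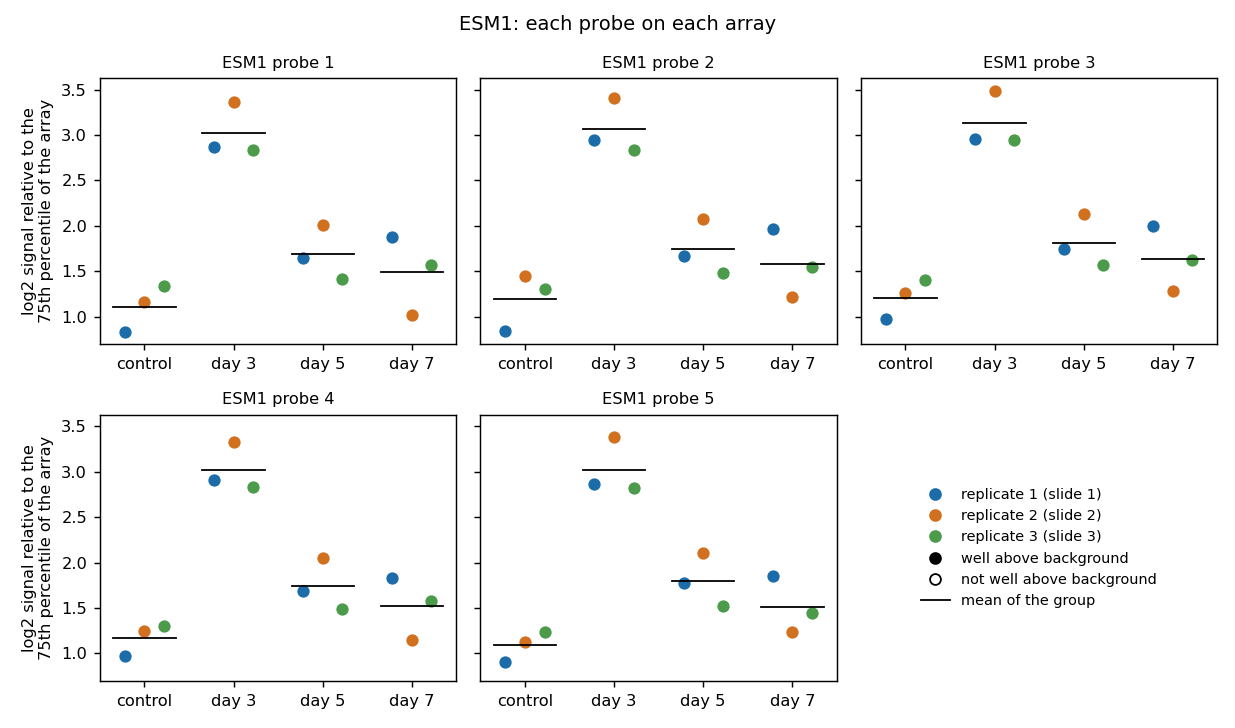
ESM1 signal of 5 overlapping probes on 12 arrays. The vertical axis is log2 signal relative to the array's 75th percentile, points are arrays coloured by slide, and bars are group means (n = 3). All 60 spots were well above background; on every probe the day 3 arrays lie above all others.

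KDR ran the other way on day 3: all 7 probes read lower than in controls, and no day 3 spot was well above background. Upstream probe 3, the one probe that was well above background on all 3 control arrays, read -5.21, -4.75 and -4.59 on day 3, against -3.12, -2.62 and -2.88 in controls. In intensity that was 4.55, 7.11 and 7.55 units on day 3, against 21.0, 30.7 and 18.5 units in controls. Every day 3 array was below every control. The fitted difference was -1.98 on the log2 scale (SE 0.51).

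Because the day 3 spots were not well above background, a fold from them is only a bound. It was taken as the control mean over the mean, per day 3 array, of the higher of the probe's own signal and that array's lowest signal well above background. On that footing KDR was at least 1.96-fold lower on day 3 by upstream probe 3 and at least 1.61-fold lower by upstream probe 2. This bound allows for the dim day 3 spots alone, not for the spread among arrays. For upstream probes 1, 2, 4 and 5 the control mean includes control replicate 2, whose spot was not well above background. Without that array their bounds were 3.23, 1.66, 1.60 and 1.54.

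Upstream probe 1 had the highest mean of the tested KDR probes and a bound of at least 2.31-fold lower on day 3, which came to at least 1.49-fold without control replicate 1. It read -4.67, -5.05 and -6.04 on day 3, against -1.36, -3.60 and -2.94 in controls. The first control value, an intensity of 70.9 units, stood well apart: the neighbouring probes 2 and 3, which share most of its bases, read 17.8 and 21.0 units on that array. The fitted difference of upstream probe 1 was -2.62 (SE 0.54), and it was -1.98 without control replicate 1.

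Over the 5 upstream probes the day 3 difference lay between -2.62 and -1.55, and the bounds lay between 1.13 and 2.31; probe 3 kept a bound of 1.8 to 2.14 without any 1 control, and probes 4 and 5 had none without control replicate 3. Upstream probe 2 read -5.37, -4.55 and -5.28 on day 3, against -3.36, -3.25 and -2.88 in controls. The downstream stretch was dimmer but differed the same way. Downstream probe 1 read -5.58, -5.15 and -6.00 on day 3, against -4.64, -5.00 and -3.29 in controls, a difference of -1.27. Downstream probe 2 read -5.79, -6.13 and -6.00 on day 3, against -3.95, -4.93 and -4.06 in controls, a difference of -1.66. Because 1 of these 6 downstream control spots was well above background and the control means lay under the lowest passing signals of the day 3 arrays, these probes give no bound. Day 3 and control arrays did not overlap on 7 of 7 KDR probes, beside 11.8% of the tested probes of the array that were separate and lower. KDR was chosen on this contrast, and 3 of its probes are not among those tested, so nothing is read from that share. Upstream probes 1, 2, 3 and 5 passed the filter on dim probes, and the other 3 did not.

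Averaged over the 7 probes, KDR stood at -5.34 ± 0.30 on day 3, against -3.51 ± 0.49 in controls (SD, n = 3 arrays each). The slides differed in size: the day 3 array was lower than its control by -2.08 on slide 1, -0.95 on slide 2 and -2.46 on slide 3. Slide 2 holds control replicate 2, the array with the higher background limit. In a piece of artery, fewer endothelial cells and less KDR RNA in each of them cannot be told apart.

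On days 5 and 7, KDR values overlapped the control values. Upstream probe 3 read -3.96, -2.66 and -3.45 on day 5, against -3.12, -2.62 and -2.88 in controls, and all 3 day 5 spots were well above background. On day 7 it read -2.41, -4.88 and -3.90. The day 7 arrays were the most spread of any group, with replicate 1 above every control and replicate 2 down among the day 3 values.

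Differences from control over the 7 KDR probes ran from -0.51 to 0.26 on day 5 and from -0.86 to 0.25 on day 7. Groups overlapped on all 7 probes on both days, where 6.15% of tested probes on day 5 and 8.93% on day 7 were separate and lower than in controls. The average over probes was -3.63 ± 0.42 on day 5 and -3.80 ± 1.03 on day 7 (SD, n = 3 each), so the order from high to low was control, day 5, day 7 and day 3. Neighbours in that order did not differ beyond their spread, except that day 7 and day 3 arrays of this average did not overlap. The day 5 arrays were above the day 3 arrays on 7 of 7 probes, by 1.27 to 2.11 on the log2 scale or at least 1.24- to 1.63-fold on the 5 probes with a bound, beside 7.98% of tested probes that were separate in this direction. Upstream probes 1, 2 and 5 entered the test only through their day 5 arrays and 3 KDR probes did not enter it, so that share is no measure of the KDR count. Day 7 arrays cleared the day 3 arrays on 5 of 7 probes, beside 11.3% of tested probes. KDR was chosen for its day 3 values, which enter both comparisons, so nothing is read from these shares.

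**Figure D2:**
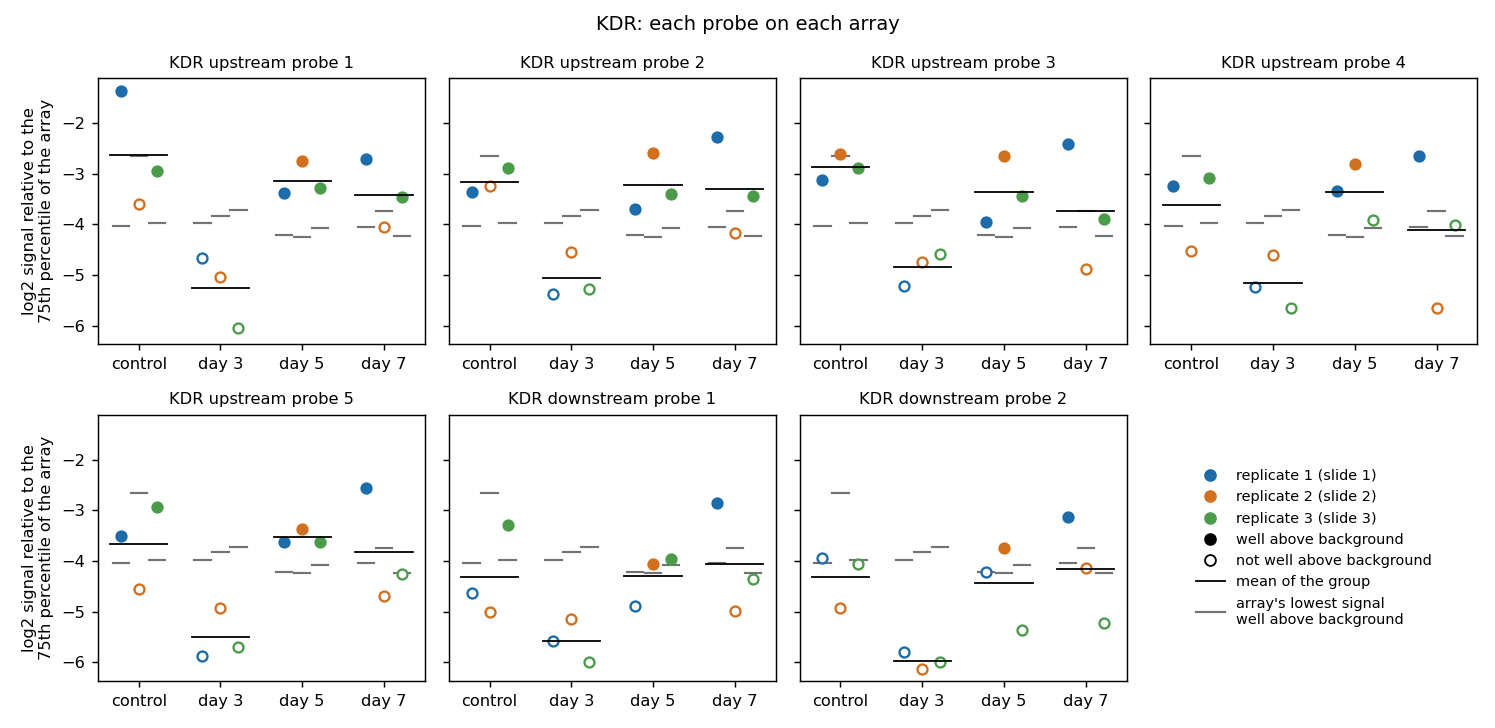
KDR signal of 7 probes on 12 arrays, as log2 relative to the array's 75th percentile. Filled points were well above background and open points were not; long bars are group means (n = 3) and short grey bars mark each array's lowest signal well above background. All 21 day 3 spots are open and lie under the grey bars, and upstream probe 1 of control replicate 1 stands apart at -1.36.

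Set side by side on each slide, the pair differed from control in opposite directions on 3 of 3 slides on day 3, on 2 of 3 on day 5 and on 1 of 3 on day 7. Both genes were chosen by their day 3 differences from control, so nothing is read from these counts. No day 3 KDR spot was well above background, so the size of its day 3 differences is uncertain. The day 3 array exceeded its control in ESM1 by 2.01, 2.15 and 1.54, averaged over probes, while KDR differed by -2.08, -0.95 and -2.46 on the same slides. On day 5 the ESM1 differences were 0.80, 0.82 and 0.18, and the KDR differences were -0.56, 0.92 and -0.71. On day 7 they were 1.0, -0.07 and 0.24 for ESM1 and 0.66, -0.58 and -0.94 for KDR. Slide 1 of day 7 had the highest values of both genes among the day 7 arrays. Across the 12 arrays the Pearson correlation between the main probes of KDR and ESM1 was -0.75, a description of arrays that share their scaling and their groups.

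**Figure D3:**
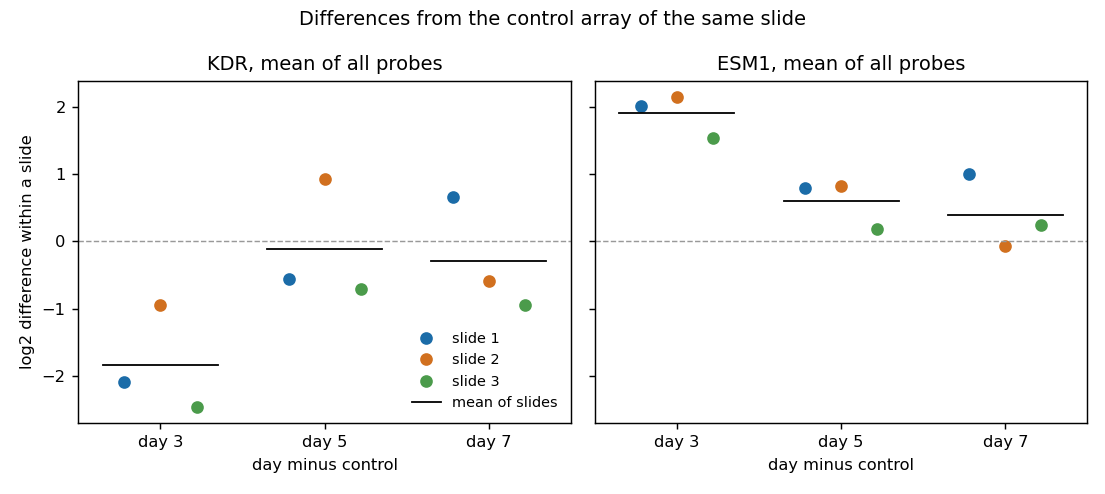
Log2 difference of each day from the control array of the same slide, for the mean of 7 KDR probes and of 5 ESM1 probes. Points are slides and bars their means. On day 3 all 3 KDR points lie between -2.46 and -0.95 and all 3 ESM1 points between 1.54 and 2.15. The day 3 KDR spots were not well above background.

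Calls in the rest of the VEGF system were near the share called over all tested probes, so nothing is read from their number. Of 54 listed ligands, receptors, receptor partners and VEGF-induced genes other than KDR and ESM1, 33 had a named probe and 29 were tested. In limma's fit over all 26433 probes, 0 of 29 passed an adjusted p of 0.05 on day 3, 1 on day 5 and 1 on day 7, where 6.64%, 2.02% and 2.26% of all tested probes did on those days. At an unadjusted p under 0.05 the day 3 count was 4 higher and 2 lower. That 0 became 1 without control replicate 1 or day 5 replicate 2, and 2 without control replicate 3 or day 5 replicate 3. With the slide as a block, 2, 1 and 2 genes passed on days 3, 5 and 7, each higher. The median day 3 difference of the 29 genes was 0.12, beside 0 over all genes.

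Among ligands, VEGFC, which acts mainly on FLT4, differed by -0.10 on day 3 (adjusted p = 0.858) and VEGFD by -0.70 (adjusted p = 0.466). VEGFD rested on control replicate 2, which read -0.29, while the other arrays of all groups read between -2.84 and -2.28. VEGFA, VEGFB and PGF had no probe that could be named here, so the main ligand of KDR was not analysed here.

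The sister receptors FLT1 and FLT4 did not pass on day 3. FLT1, which binds VEGFA tightly and limits what reaches KDR, stood at -2.02 ± 0.19 on day 3, against -1.84 ± 0.25 in controls (SD, n = 3 each; difference -0.18, SE 0.20, adjusted p = 0.676). FLT4, the receptor of lymphatic and some sprouting endothelium, stood at 0.44 ± 0.17 on day 3, against 0.19 ± 0.06 in controls (adjusted p = 0.329). Its day 3 arrays, at 0.33 to 0.63, lay above its control arrays, at 0.12 to 0.22, as 13.1% of tested probes did. The co-receptor NRP1 differed by 0.32 (adjusted p = 0.59), with 1 of 3 control arrays well above background. The probe of NRP2 was too dim to be tested.

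Of 15 tested receptor partners and signalling genes, DAB2 was the one that passed, on days 5 and 7, beside 2.02% and 2.26% of all tested probes. DAB2 is a clathrin adaptor that takes part in receptor uptake, known in mouse endothelium for VEGF receptors and also carried by macrophages. It stood at 0.69 ± 0.19 on day 5 and 0.72 ± 0.16 on day 7, against -0.12 ± 0.26 in controls (SD, n = 3 each). It rose by 0.81 on day 5 (SE 0.18, adjusted p = 0.0417) and by 0.83 on day 7 (SE 0.18, adjusted p = 0.0357), and 2 of its 3 tested probes passed on each day. The day 3 difference was 0.63 (adjusted p = 0.0562), and 1 of its 3 tested probes passed on that day. The day 5 call was lost when any array but control replicate 1 was left out, with an adjusted p of 0.0505 to 0.155. The day 7 call was lost without control replicate 2, day 3 replicate 2, day 5 replicate 2 or any day 7 array, with an adjusted p of 0.0541 to 0.135. PRKCA, EPN2 and CBL, which carry or end the receptor's signal, differed by -0.39 to -0.17 on day 3 and did not pass.

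ESM1 belongs to a list of VEGF-induced and tip cell genes of which 9 others were tested, with 0 passing on any day in limma's test, beside the same shares of all probes. At an unadjusted p under 0.05, 3 were higher and 1 lower on day 3, 4 and 1 on day 5, and 2 and 1 on day 7. On day 3, 8 of the 9 differed upward, with a median of 0.54, beside 0 over all genes. CXCR4 and KCNE3, among others, passed the filter on dim probes only through day groups in which they read higher. The filter therefore favours upward differences, and nothing is read from that count. CXCR4, the chemokine receptor of tip cells and of leukocytes, stood at -2.62 ± 0.34 on day 3, against -4.06 ± 0.58 in controls, where 1 of 3 arrays was well above background (difference 1.43, SE 0.40, adjusted p = 0.0573). KCNE3, a potassium channel subunit, differed by 0.93 (adjusted p = 0.202), again with 1 of 3 control arrays well above background. F3, the tissue factor that starts clotting, differed by 0.68 (adjusted p = 0.164), and ANGPT2, the angiopoietin of activated endothelium, by 0.54 (adjusted p = 0.271). The exception was NR4A1, an immediate early nuclear receptor, which stood at -0.09 ± 0.54 on day 3, against 0.88 ± 0.43 in controls (adjusted p = 0.181).

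Neighbouring endothelial pathways were read by few probes, so a count of 0 is near the 6.64%, 2.02% and 2.26% of all probes called on days 3, 5 and 7. Of 7 tested angiopoietin, Notch and related genes, 0 passed on any day in limma's test, and at an unadjusted p under 0.05 the count was 0 on days 3 and 5 and 1 on day 7. EPHB4, an ephrin receptor of veins, differed by -0.56 on day 7 (adjusted p = 0.188), the Notch ligand JAG1 by -0.43 on day 3 (adjusted p = 0.325) and the Notch target HEYL by -0.21 (adjusted p = 0.543). Of 5 tested endothelial transcription factors, 0 passed, and 1 was higher at an unadjusted p under 0.05 on each day. That 1 was HIF1A, the oxygen-sensitive factor that drives VEGFA and is not limited to endothelium, at 0.84 ± 0.09 on day 3, against -0.29 ± 0.07 in controls (difference 1.12, SE 0.38, adjusted p = 0.105). EPAS1, GATA2 and HHEX differed by -0.33 to 0.24 on day 3.

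Of 31 listed general endothelial markers, 14 were tested, and 0 passed on any day in limma's test, a count near the 6.64%, 2.02% and 2.26% called over all probes. With array weights 3, 1 and 3 passed; without control replicate 3 the counts were 1, 1 and 3 on days 3, 5 and 7, and 1 on day 7 without day 3 replicate 3. The counts at an unadjusted p under 0.05 were 1 higher and 4 lower on day 3, 0 and 1 on day 5, and 0 and 4 on day 7. Their median difference was -0.29, -0.17 and -0.19 in day 3, 5 and 7 arteries, beside 0 to 0.03 over all genes. Summed signal of the 14, in units of each array's 75th percentile, was 147 to 167 on day 3, against 125 to 157 in controls. The sum was 124 to 154 on day 5 and 128 to 155 on day 7. It rests mostly on the brightest genes, VWF and PODXL, at 5.68 and 5.67 in controls and 6.1 and 5.74 on day 3. The mean log2 level of these 14 genes leaned the other way, at 1.09 to 1.28 on day 3, against 1.28 to 1.41 in controls. That mean was 1.09 to 1.36 on day 5 and 0.85 to 1.2 on day 7. The share of endothelial cells in the arteries was not tested.

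Single markers leaned both ways, with 6 of the 14 tested higher and 8 lower on day 3. The upward ones given here, VWF and PECAM1, were added after their values were seen. CLDN5, the tight junction claudin of brain endothelium, stood at 2.40 ± 0.44 on day 3, against 3.04 ± 0.23 in controls (difference -0.64, adjusted p = 0.127). NOS3, the endothelial nitric oxide synthase, differed by -0.79 on day 3 (adjusted p = 0.176). ESAM, an endothelial adhesion molecule, and MMRN2, a matrix glycoprotein of endothelium, had their lowest levels on day 7, at differences of -0.92 (adjusted p = 0.0666) and -0.89 (adjusted p = 0.0874). VWF, the clotting glycoprotein stored by endothelium, stood at 6.10 ± 0.13 on day 3, against 5.68 ± 0.16 in controls (adjusted p = 0.28), and PECAM1, the junction molecule CD31, at 1.08 ± 0.19 on day 3, against 0.75 ± 0.24 in controls (adjusted p = 0.586).

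**Figure D4:**
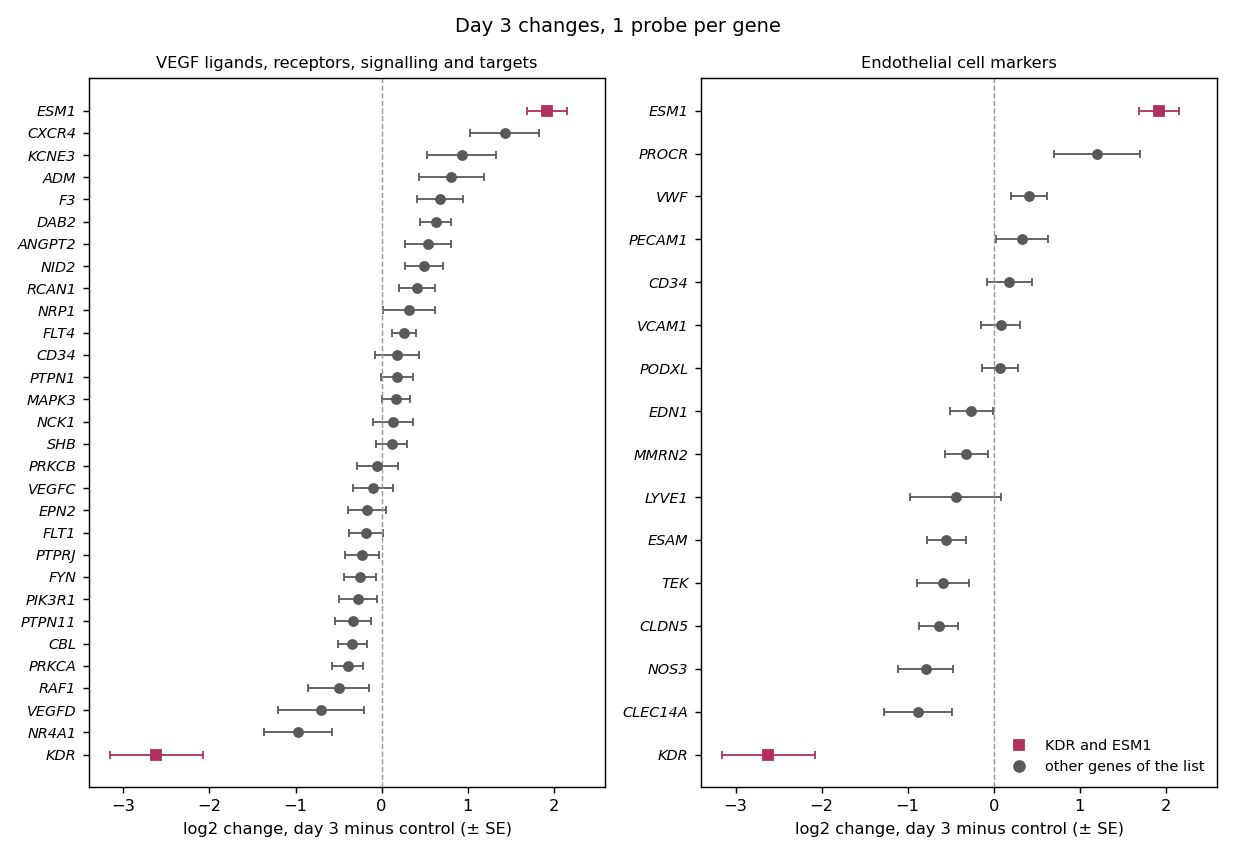
Fitted log2 differences, day 3 minus control, with SE, for tested genes of the VEGF lists (left, 1 gene not shown) and the endothelial marker list (right), 1 probe per gene. KDR at -2.62 and ESM1 at 1.92 are the ends of both panels; the KDR value rests on day 3 spots not well above background, and the list was not chosen independently of these data.

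Of the genes around endocan itself, 9 with known binding partners or dermatan sulfate synthesis enzymes were tested. On day 3, 2 of them passed (6.64% of all probes did), 1 on day 5 (2.02%) and 0 on day 7 (2.26%). In limma's test at an unadjusted p under 0.05 the day 7 count was 3 higher. ITGB2, the beta chain of the leukocyte integrin that endocan binds, stood at 3.39 ± 0.40 on day 3, against 2.09 ± 0.37 in controls, and rose by 1.3 (SE 0.25, adjusted p = 0.0126). On day 5 it rose by 1.15 (adjusted p = 0.0434), a call lost when any array but day 3 replicate 3 was left out, with an adjusted p of 0.0539 to 0.129. HGF, a growth factor whose activity endocan is known to enhance in human kidney cells, stood at 0.38 ± 0.19 on day 3, against -0.87 ± 0.37 in controls, and rose by 1.25 (SE 0.22, adjusted p = 0.00746), with 3 of 3 tested probes passing. FN1, fibronectin, differed by 1.0 on day 3 (adjusted p = 0.161) and decorin, DCN, by 0.50 by its brightest probe (adjusted p = 0.166), while 4 of its 6 probes passed on day 3 and 4 on day 7. CHPF and XYLT2, which build chondroitin and dermatan chains, differed by 0.14 and 0.28. ITGAL and MET, the HGF receptor, were too dim to be tested.

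Some markers of other cell types passed as well, beside 6.64%, 2.02% and 2.26% of all tested probes on days 3, 5 and 7. Of 4 tested macrophage markers, CD68, CD14 and MSR1 rose on every day, and CD68 rose by 2.17 on day 3 (adjusted p = 0.000126). MSR1 lost its day 5 call without control replicate 2 or 3 or day 5 replicate 1 or 3 (adjusted p 0.0611 to 0.0877), and its day 7 call without control replicate 2 or any day 7 array (0.0514 to 0.12). The summed signal of the 4 was 16.5 to 22.1 in day 3 arteries, 18.6 to 29.7 in day 5 arteries and 18.0 to 22.5 in day 7 arteries, against 5.79 to 8.84 in controls.

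The 11 tested smooth muscle markers summed to 756 to 859 on day 3, against 1080 to 1240 in controls. On days 5 and 7 they summed to 723 to 895 and 775 to 966. Their median difference was -0.43, -0.46 and -0.59 on days 3, 5 and 7, beside 0 to 0.03 over all genes. In limma's test at an unadjusted p under 0.05, 5, 5 and 7 of the 11 were lower and 0 higher on those days. MYL9, a myosin light chain, was the only marker of this list that passed on day 3, at -0.64 (adjusted p = 0.0451). That count is near the 6.64% called over all tested probes. The MYL9 call was lost without control replicate 1 or 2, day 3 replicate 2 or 3, or replicate 1 or 2 of day 5 or day 7 (0.0562 to 0.167). It was also lost under normexp, quantile scaling, the authors' table or no filter (0.0725 to 0.123). Of 7 fibroblast and leptomeningeal markers, the transporters SLC22A6 and SLC22A8 and the prostaglandin synthase PTGDS fell on day 3 and COL1A1 and LUM rose (adjusted p 0.00254 to 0.0172). LUM lost its call without control replicate 1 or 2 or day 3 replicate 3 (0.0505 to 0.0648), and SLC22A8 without day 3 replicate 2 (0.0504). The list's median difference was 0.41, with 4 genes higher and 3 lower. Its sum, 627 to 729 on day 3 against 1020 to 2140 in controls, is mostly PTGDS, at 8.74 ± 0.16 on day 3, against 10.33 ± 0.56 in controls.

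Of 6 pericyte markers, 1 passed, PDGFRB on day 3, at 0.85 (adjusted p = 0.046), a count near the 6.64% called over all tested probes. The PDGFRB call was lost without any 1 of the control or day 3 arrays, day 5 replicate 1 or 2, or day 7 replicate 3 (0.0627 to 0.144). It was also lost under normexp (0.79) and 6 other processing alternatives (0.0547 to 0.106). The 2 tested neural and glial markers and the 3 red blood cell markers gave 0 calls on any day in limma's test. That 0 is near the 6.64%, 2.02% and 2.26% of all probes called on days 3, 5 and 7. At an unadjusted p under 0.05 these marker lists gave 1 lower neural marker on days 3 and 7 and 2 higher globin genes on day 7. No marker list had a control or day 3 sum of 0. Sums of intensities over tested probes cannot reach 0, so nothing is read from that. The part of these cells in the KDR and ESM1 values was not tested.

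Among 6952 named genes well above background on at least 9 arrays, those whose log2 values followed KDR upstream probe 1 most closely over the 12 arrays were PTPRM (Pearson r = 0.93), ITGB8 (0.92), PNN (0.92), SMURF2 (0.91) and EGFLAM (0.91). PTPRM is a receptor tyrosine phosphatase of cell contacts and ITGB8 an integrin chain that activates TGF-beta. ITGB8 stood at -0.86 ± 0.42 on day 3, against 0.23 ± 0.22 in controls (SD, n = 3 each). The most opposed were LOC100338916, ACAT2 and PIGU, each at -0.89; ACAT2, an enzyme of the sterol pathway, stood at 1.80 ± 0.13 on day 3, against 0.94 ± 0.19 in controls. Of the 12 KDR values behind these correlations, 5 were not well above background, the 3 day 3 values among them.

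Genes that followed ESM1 probe 3 most closely were LOC100345975 (r = 0.94), LDHA (0.93), LOC100009168, which RefSeq also lists as serum amyloid A (0.92), LOC100346306 (0.92) and POMGNT2 (0.92). LDHA, the lactate dehydrogenase chain of glycolysis, stood at 3.32 ± 0.30 on day 3, 2.29 ± 0.05 on day 5 and 2.29 ± 0.31 on day 7, against 1.74 ± 0.29 in controls. The serum amyloid gene stood at 5.51 ± 1.11 on day 3, against -0.07 ± 1.16 in controls. Most opposed were ATP1B2, a sodium pump subunit (-0.93), the calcium release channel RYR3 (-0.91) and C1QTNF7 (-0.91). The points of these correlations share their arrays, scaling and groups.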

How the data were processed

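Total RNA of 12 basilar arteries was hybridised in 1 colour (Cy3) to Agilent arrays, 3 per group, on 3 slides. The authors' scanner files came from Agilent Feature Extraction 9.5.1.1, per the submitters' processing notes. Per the file headers they hold processed intensity, mean and background intensity, and flags for spots well above background, saturated or outlying. The deposited value table holds quantile-normalized intensities of the same arrays, not on a log scale. Genes were named from the array's own columns and, by accession, from RefSeq: 22638 of 43623 probes had 1 gene, 263 several and 20722 none.

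Processed intensity was taken as log2 minus the array's 75th percentile. Outlier-flagged spots were left out. Of 43623 probes, 26433 were well above background on all 3 arrays of a group and were tested with limma 3.58.1 in R 4.3.3, in 1 fit of 12 arrays, with Benjamini-Hochberg adjustment over all of them and a call at 0.05. A gene takes its tested probe with the highest mean. The fitting code was tested on simulated data. KDR, ESM1 and all 14 gene lists were chosen with earlier results of these data known. Text names list genes that passed, up to 4 more with the smallest F-test p (VWF and PECAM1, as well-known markers, were added after their values were seen), and the 5 most and 3 least correlated genes; 1 list gene the rule names is not reported here. Replicate number is the slide. After group means were removed, same-numbered arrays correlated by -0.154 to 0.387 (median 0.108). Arrays with different numbers correlated by -0.396 to 0.26 (median -0.041). The main fit has no block. With the slide as a fixed or random block, day 3 had 2280 or 2391 calls, against 1754 in the main fit.

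Alternatives were background correction (normexp, offset 50), quantile scaling, a percentile over detected probes, the log2 of the authors' value table, and 2 filters. Others were slide as block, array weights, outlier spots kept, the mean of a gene's probes, a floor for dim spots and leaving out each array.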

Additional observations from a re-analysis of the deposited data

How the results depend on the processing

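Depth of signal limits KDR: its intensities of 2.52 to 70.9 units lie near background, while ESM1 lay well above it on all 12 arrays. KDR's day 3 difference was -0.51 with normexp, whose offset of 50 is above all but the highest of these intensities, and -1.52 with dim spots set to the lowest passing signal of their array; the stricter filter kept no KDR probe. KDR's day 5 difference changed sign, to 0.21 with normexp and 0.13 without control replicate 1. Leaving out 1 array at a time gave KDR -3.10 to -1.98, -0.99 to 0.13 and -1.26 to -0.14 in day 3, 5 and 7 arteries, and ESM1 1.74 to 2.02, 0.45 to 0.73 and 0.24 to 0.60. ESM1's day 5 difference was 0.90 with array weights. Every other alternative for which a difference was computed kept the direction of both genes on each day.

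Numbers of probes called varied more. Against the 1754 of day 3, normexp gave 1007 and no filter 974; against the 533 of day 5, normexp gave 221, no filter 345, the stricter filter 311 and array weights 1368; against the 597 of day 7, normexp gave 253, no filter 305, array weights 1391, the replicate block 954 and slide as a random block 1032. Day 5 against day 3 had 3 calls, and 56 with normexp, 0 with the stricter filter and 861 with array weights. Day 7 against day 3 had 38, and 20 in the authors' table, 3 with no filter, 2 with the replicate block, 68 with the random block and 280 with array weights. With 1 array left out these counts ran from 789 (without day 3 replicate 3) to 1943, 280 (without day 5 replicate 1) to 685, 229 (without day 7 replicate 1) to 1692 (without control replicate 3), 0 to 5 and 2 to 70 (without control replicate 2).

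VEGF system calls on day 3 were 0 in the reported fit, 1 with the stricter filter and 2 with either slide block. The single call on days 5 and 7 was 0 with normexp, the percentile over detected probes or no filter, and on day 7 it became 2 with either block. Leaving out 1 array gave 0 to 2, 0 to 1 and 0 to 3 on the 3 days. Endothelial marker calls, 0 in the reported fit, were 3, 1 and 3 with array weights on days 3, 5 and 7 and 1 with the random block on day 7. With 1 array left out they were 0 to 1, 0 to 1 and 0 to 3, the highest each time without control replicate 3. Same-numbered arrays share a slide, and correlations of their deviations had a median of 0.108 over 18 pairs, not above 0.1 in every pair; the replicate block left the KDR and ESM1 differences at -2.62 and 1.92 on day 3. The cause of these differences between settings was not tested.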
